A study of Mus musculus with 18 samples.

Results

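The small proline-rich proteins, encoded by the Sprr genes, were followed in mouse kidney RNA by every probe set whose single gene symbol in the platform annotation begins with Sprr. There were 14 such probe sets for 13 genes, among 12422 probe sets that are no controls and 8251 genes named by a single symbol. The study compared mice labelled Aprt KO with control littermates of the same sex, all of strain C57 per the labels, on 1 array per mouse. The groups were Aprt KO at 7 days of age (6 mice), controls at 7 days (6 mice), Aprt KO at 1 month (3 mice) and controls at 1 month (3 mice), in 9 litter pairs. The series text gives Aprt-/- for the KO mice and Aprt+/+ for the controls, and names no further allele or treatment. Aprt encodes adenine phosphoribosyltransferase, an enzyme of purine salvage. Its loss diverts adenine into an oxidised form that dissolves poorly and precipitates as crystals and stones in the kidney.

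Sprr proteins are short, proline-rich substrates of transglutaminases and are cross-linked into the cornified envelope, the protein shell beneath the membrane of cells in skin, oral mucosa and other stratified epithelia. Their genes lie side by side in the epidermal differentiation complex, a cluster that also holds loricrin, involucrin, filaggrin and many S100 genes. Some family members are also induced in injured or stressed cells that form no cornified envelope. Mouse Sprr1a is known from regenerating neurons, and mouse Sprr2 genes are known to respond to oestrogen in the uterus.

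The family was taken up because Sprr2f stood out at 7 days in an earlier analysis of these same arrays. It was thus chosen by the measured 7-day difference between Aprt KO and control signals, and all 7-day genotype values of the members, and the age contrasts that share those mice, are given as a description with no test. The 1-month mice are other animals, and that contrast was tested.

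Of the 14 probe sets, 10 read the Sprr2 genes Sprr2b, Sprr2c-ps, Sprr2d, Sprr2e, Sprr2f, Sprr2g, Sprr2h, Sprr2i, Sprr2j-ps and Sprr2k, 1 each. The others read Sprr1a, Sprr1b (2 probe sets) and Sprr3. All lie on chromosome 3. In the gene order of RefSeq's GRCm38.p6 annotation the Sprr2 genes stand next to each other from Sprr2b to Sprr2k, followed by Sprr1b, Sprr3 and Sprr1a. RefSeq lists Sprr2c-ps as a pseudogene, and Sprr2g and Sprr2j-ps as transcribed pseudogenes. Another 2 probe sets carried several Sprr symbols and were not used.

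Close copies limit what a probe set can name. By their suffixes, 8 of the 14 probe sets are of a kind Affymetrix marks for a sequence family (_f_at), 1 is marked for several transcripts (_s_at, Sprr2f) and 1 for relaxed probe selection (_r_at, Sprr1b). The remaining 4 (Sprr1a, Sprr2d, Sprr2h and Sprr3) carry no such mark. A signal on an _f_at or _s_at probe set may come from more than 1 Sprr2 gene, and the share of each cannot be told apart here.

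The promoters of 10 of the 13 genes were matched by gene identifier in the RefSeq promoter table (GRCm38.p6), which gives 300 bases, 250 before and 50 after the gene's start. The following 5 windows are shown because they span the signals described next. Sprr2f and Sprr2i had high 7-day differences, Sprr2b and Sprr1a were higher in Aprt KO arrays at both ages, and Sprr2h is an Sprr2 gene whose groups overlapped. The windows lie at chr3:92364937-92365236 (+ strand), chr3:92407741-92408040 (+), chr3:92316455-92316754 (+), chr3:92385435-92385734 (+) and chr3:92485832-92486131 (- strand). They are written 5′ to 3′ along the gene, and capitals mark the AP-1 motif (TGANTCA), the octamer (ATGCAAAT, here read on the other strand as ATTTGCAT) and the TATA box (TATAAA), in that order in the Sprr2 windows.
Sprr2f: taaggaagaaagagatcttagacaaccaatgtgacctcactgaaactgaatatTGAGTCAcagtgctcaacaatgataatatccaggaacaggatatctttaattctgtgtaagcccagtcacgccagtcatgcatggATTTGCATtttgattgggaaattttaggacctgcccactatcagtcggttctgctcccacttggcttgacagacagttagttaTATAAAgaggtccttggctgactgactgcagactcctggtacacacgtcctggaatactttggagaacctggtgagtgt
Sprr2i: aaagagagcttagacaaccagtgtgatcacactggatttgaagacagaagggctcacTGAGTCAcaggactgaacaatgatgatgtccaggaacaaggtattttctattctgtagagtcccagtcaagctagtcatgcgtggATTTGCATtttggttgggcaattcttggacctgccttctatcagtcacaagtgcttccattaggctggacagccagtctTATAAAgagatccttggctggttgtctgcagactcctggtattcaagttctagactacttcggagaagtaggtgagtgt
Sprr2b: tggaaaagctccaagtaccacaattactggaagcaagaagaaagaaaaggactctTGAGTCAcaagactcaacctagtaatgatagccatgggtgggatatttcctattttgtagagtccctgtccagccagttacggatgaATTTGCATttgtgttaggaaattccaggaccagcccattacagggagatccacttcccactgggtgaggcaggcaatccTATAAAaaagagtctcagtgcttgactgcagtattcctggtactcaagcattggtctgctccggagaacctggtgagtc
Sprr2h: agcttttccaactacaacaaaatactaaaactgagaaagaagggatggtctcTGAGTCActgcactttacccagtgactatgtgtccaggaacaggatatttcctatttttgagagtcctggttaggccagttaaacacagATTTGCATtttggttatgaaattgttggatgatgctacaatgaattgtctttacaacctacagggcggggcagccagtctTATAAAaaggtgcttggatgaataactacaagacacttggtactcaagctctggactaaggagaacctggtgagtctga
Sprr1a: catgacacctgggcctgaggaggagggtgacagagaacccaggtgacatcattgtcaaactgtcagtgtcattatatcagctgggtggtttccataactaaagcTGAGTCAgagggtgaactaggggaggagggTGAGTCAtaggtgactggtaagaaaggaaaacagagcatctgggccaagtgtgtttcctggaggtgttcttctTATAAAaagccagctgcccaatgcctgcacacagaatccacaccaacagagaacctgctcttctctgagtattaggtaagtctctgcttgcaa

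The 7 Sprr2 promoters had the same 3 motifs in nearly the same places. TATAAA began 29 bases before the start in all 7, the octamer between 108 and 112 bases before it, and TGANTCA between 193 and 198 bases before it, with a second match at 182 in Sprr2k. Both strands were searched. Over the whole family, TATAAA was in 10 of 10 windows, against 13.6% of all 32851 promoter windows of that length. TGANTCA, a pattern wider than the sites TGAGTCA and TGACTCA bound by Fos and Jun dimers, was in 9 of 10, against 7.81% of all windows. The match in Sprr1b read TGAATCA, which is neither of these sites. The octamer, bound by POU factors, was in 7 of 10, against 1.74%. TGANTCA stood at 146 and 116 bases before the start in Sprr1a and at 111 in Sprr1b, and was not in the Sprr3 window. GGAAGT, read by ETS factors such as Elf3, was in 3 of 10 windows against 23.8% of all, and TTCNNNGAA, a STAT site, was in 1 of 10 against 8.3%. These matches describe letters and do not show binding.

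The windows differed more in the rest of their sequence. In pairwise alignment with the Sprr2f window, identity was 75.8% for Sprr2e, 75.0% for Sprr2i, 73.2% for Sprr2d, 65.7% for Sprr2b, 63.1% for Sprr2k and 61.9% for Sprr2h. It was 52.0% for Sprr1b, 50.6% for Sprr3 and 48.9% for Sprr1a. Sprr2f, Sprr2d and Sprr2h thus hold the same 3 motifs, although only Sprr2f of these differed in signal between the 7-day groups without overlap.

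**Figure D1:**
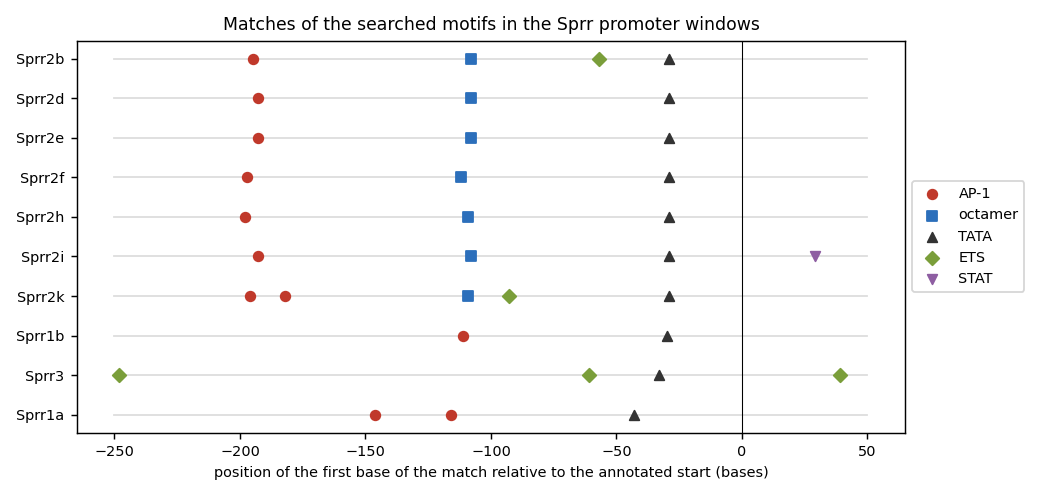
Positions of the searched motifs in the 10 matched Sprr promoter windows, with distance from the gene's start in bases on the x axis and 1 gene per row and a point at the first base of each match. The AP-1, octamer and TATA motifs line up across the 7 Sprr2 rows, and the Sprr1 and Sprr3 rows hold no octamer.

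The values are MAS5 signals on a linear scale, in arbitrary units. The trimmed mean signal was 499.9 on each of the 18 arrays, and median signals ran between 160.1 and 216.4. The highest signal on an array was 10167 and 10767 for the litter pair of 7-day Aprt KO 4 and control 4, and 25718 to 51453 for the other 16 arrays. The targeted gene gave a weak check of the labels, since its brightest probe set was dim. Aprt read 41.9 to 135 on the arrays labelled 7-day Aprt KO and 51.3 to 148 on the 7-day control arrays, and 52.2 to 86.5 against 104 to 110 at 1 month. The log2 fold change of this probe set was -0.58 at 7 days (limma adjusted p = 0.425) and -0.54 at 1 month (adjusted p = 1). The other Aprt probe sets showed no such drop, with 0.10 and 0.13 at 7 days and -0.12 and -0.07 at 1 month. On 4 arrays the signal of the brightest Aprt probe set lay past the midpoint of the group medians, on the other group's side: 7-day controls 1 and 2, 7-day Aprt KO 4 and 1-month Aprt KO 1. Values without them stand beside the 7-day differences of the 7 members whose groups did not overlap and the 1-month values of Sprr2f, Sprr2g, Sprr1a and Sprr2b, and "Aprt KO" means the label throughout. Kidney markers were abundant, with summed signals of 8 of 10 listed genes between 27590 and 31850 on the 7-day Aprt KO arrays and between 35210 and 39580 on the 7-day control arrays. Their median 7-day log2 fold change was -0.29, with 0 of 8 called, and 5 called lower under the fixed replicate block (2 under the random block). The part of this difference in the 7-day Sprr values was not tested.

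At 7 days the family was split. Every Aprt KO array lay above every control array for 7 of the 14 probe sets (Sprr2f, Sprr2c-ps, Sprr2i, Sprr2g, Sprr2e, Sprr1a and Sprr2b), and the groups overlapped for the other 7. Over all probe sets, 1.5% were placed that way. Without the 4 arrays whose Aprt signal went against the label, these were the same 7 members, against 2.15% of all probe sets. Of the 7, 6 were Sprr2 probe sets (of 10) and 1 was Sprr1a (of 3 Sprr1 probe sets); 5 carried the _f_at suffix. The median log2 fold change was 0.50 over the 14 members and -0.01 over all probe sets, and 4 members passed 2-fold, as did 0.837% of all probe sets. By the limma fit with an adjusted p under 0.05, 1.51% of all probe sets were called higher and 0.266% lower at 7 days, and no such call is read for the members. In bulk tissue, more cells of a type and more RNA per cell cannot be told apart.

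**Figure D2:**
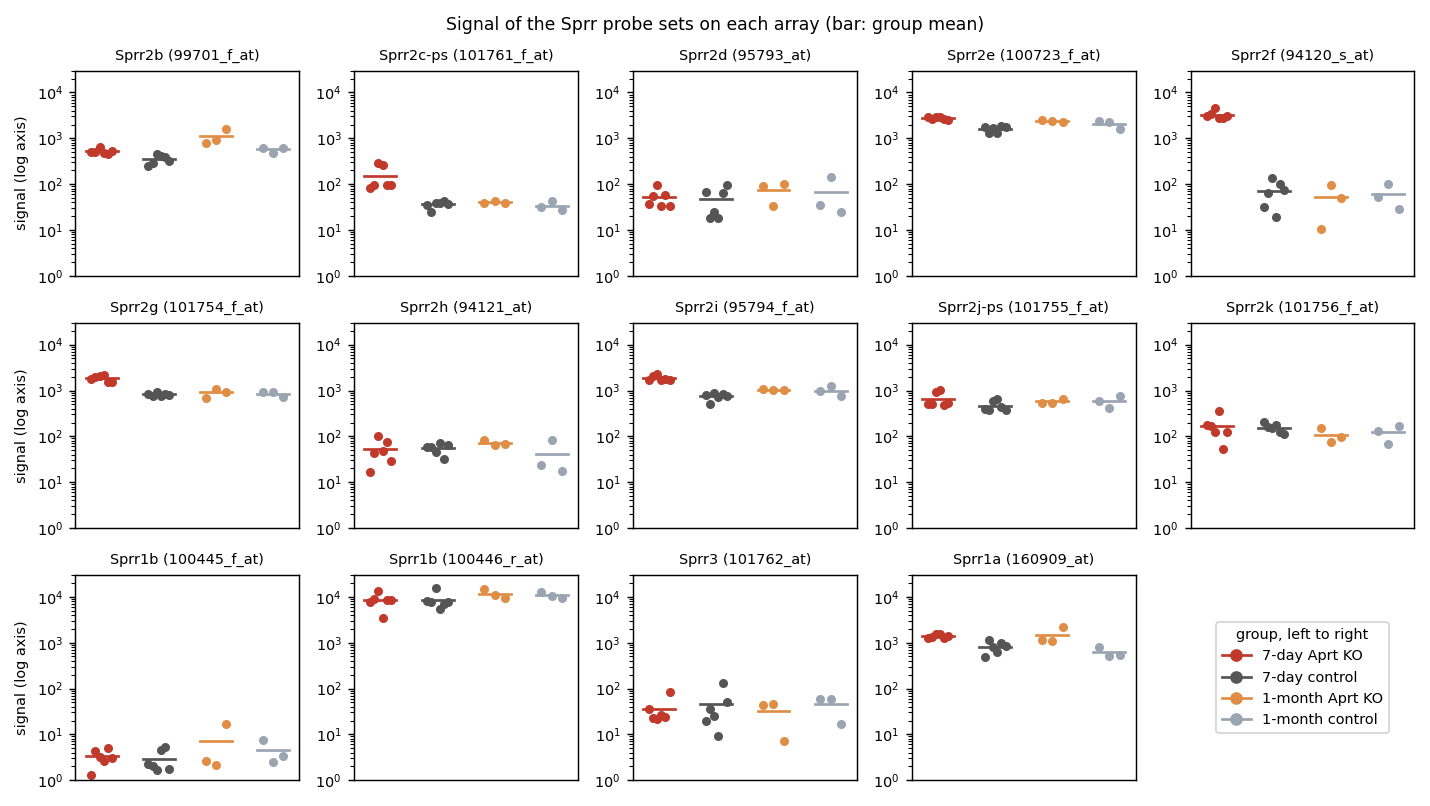
Signal of each of the 14 Sprr probe sets on each array (log y axis, arbitrary units), by group from left to right, with points for arrays and a bar for the group mean. Sprr2f is between 2796 and 4610 on the 7-day Aprt KO arrays and at most 133.8 on the other 12.

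Sprr2f, whose protein is a cornified-envelope precursor of the Sprr2 group, had the largest 7-day log2 fold change of all 12422 probe sets. Its signal on the 7-day Aprt KO arrays was 2796 at the lowest, 3045 at the median and 4610 at the highest, and on the 7-day control arrays 19.6, 68.9 and 134. No array fell between 133.8 and 2796. The means were 3297 ± 685 and 70.8 ± 42.9 (SD, n = 6 each), a ratio of 46.6. On the log2(signal + 29) scale, which understates changes of dim probe sets, the fold change was 5.16 (SE 0.26), and it was between 4.45 and 5.86 in the 6 litter pairs. It was 5 without the 4 arrays named above and 5.02 without the litter pair of 7-day control 4.

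Sprr2i and Sprr2g, which stand on either side of Sprr2h in the gene order, were both already bright in controls. Sprr2i read 1660, 1747 and 2314 (lowest, median and highest) on the 7-day Aprt KO arrays, against 519, 761 and 886 on the 7-day control arrays. Sprr2g, listed as a transcribed pseudogene, read 1501, 1878 and 2146 against 740, 823 and 924. Both pairs of groups were apart on every array. The log2 fold changes were 1.31 (SE 0.13) for Sprr2i and 1.13 (SE 0.12) for Sprr2g, and the difference was positive in 6 of 6 litter pairs for each. They were 1.23 and 1.06 without the 4 arrays. Sprr2e, also bright in controls, read 2463, 2770 and 2895 on the 7-day Aprt KO arrays and 1324, 1704 and 1840 on the 7-day control arrays, a log2 fold change of 0.76 (SE 0.10), and 0.69 without the 4 arrays.

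Sprr2c-ps, a pseudogene, was dim in controls and uneven among the Aprt KO mice. The 7-day Aprt KO arrays read 83.3, 94.5 and 286 at the lowest, median and highest, and the 7-day control arrays 24.1, 37.8 and 41.9. Aprt KO 3 and Aprt KO 4 had the high values, 286 and 261, while the other 4 were between 83.3 and 95.0. The log2 fold change was 1.34 (SE 0.25), 1.18 without the litter pair of 7-day control 4 and 1.08 without the 4 arrays. The same 2 arrays were the highest for Sprr2j-ps, a transcribed pseudogene, at 935 and 1014, with the other 4 Aprt KO arrays between 491 and 540 and the 7-day controls between 380 and 647. Their littermates, controls 3 and 4, were also the highest of the 7-day controls, at 581 and 647, and the other controls read 380 to 431. The Aprt KO and control groups overlapped, although the Aprt KO array was above its littermate in 6 of 6 pairs. The Sprr2j-ps log2 fold change of 0.44 (SE 0.21) became 0.19 without the 4 arrays whose Aprt signal went against the label.

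Sprr1a and Sprr2b differed less at 7 days, and their groups did not overlap. Sprr1a, a cornified-envelope precursor also induced in injured neurons, read 1285, 1391 and 1554 on the 7-day Aprt KO arrays and 484, 837 and 1148 on the 7-day control arrays. Its log2 fold change was 0.81 (SE 0.19), and the litter pairs ranged between 0.16 and 1.43. Sprr2b, the first Sprr2 gene in the row, read 462, 499 and 657 against 244, 359 and 444, a log2 fold change of 0.56 (SE 0.16). Without the 4 arrays the values were 0.74 for Sprr1a and 0.40 for Sprr2b.

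Sprr1b, known as a marker of squamous differentiation, was read by 2 probe sets that disagree in level. The _r_at probe set gave 8473 ± 3180 on the 7-day Aprt KO arrays and 8578 ± 3440 on the 7-day control arrays (SD, n = 6 each). The _f_at probe set stayed below 29 on all 18 arrays. Their log2 fold changes were -0.04 (SE 0.24) and 0.02 (SE 0.09). On the brighter probe set the lowest values of the 7-day Aprt KO and control groups, 3518 and 5314, were on Aprt KO 4 and control 4. This is the litter pair with the low maximum signals. Without it the log2 fold change of the brighter probe set was 0.07, against -0.04 on all arrays.

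The remaining members overlapped between the 7-day groups. Sprr2k averaged 166 ± 100 on the 7-day Aprt KO arrays and 154 ± 31.8 on the 7-day control arrays. Sprr2d averaged 51.8 ± 24.5 and 47.6 ± 32.1, Sprr2h 52.4 ± 31.4 and 55.0 ± 13.9, and Sprr3, known from oesophageal and oral epithelium, 35.5 ± 24.1 and 45.3 ± 45.5, Aprt KO first in each case (SD, n = 6). Their log2 fold changes were between -0.12 and 0.14. Sprr2d and Sprr2h, which flank Sprr2e, Sprr2f and Sprr2g in the gene order, were among these 4.

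**Figure D3:**
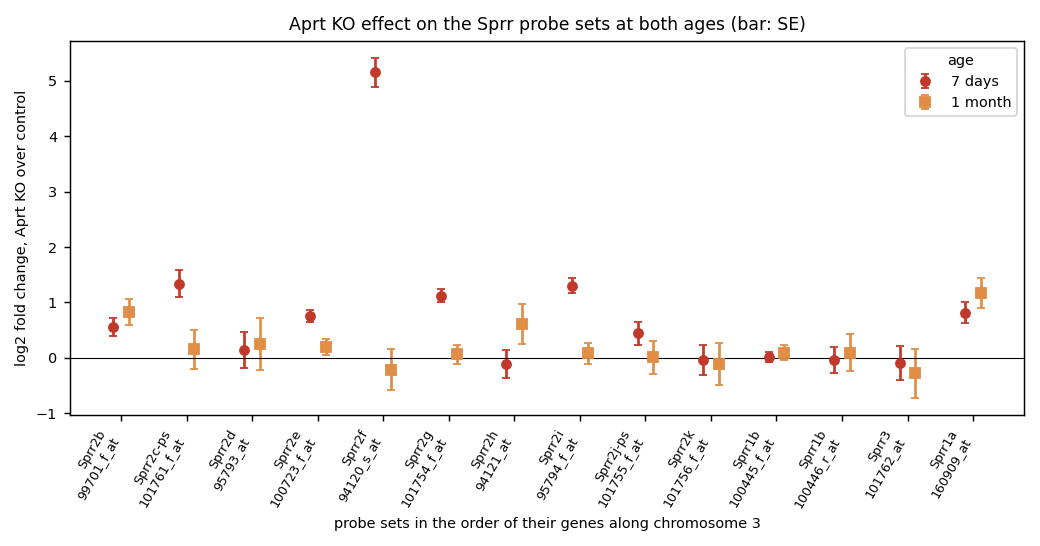
Log2 fold change of Aprt KO over control (y axis, log2(signal + 29) scale) with its standard error at 7 days and at 1 month, for each Sprr probe set in the order of the genes along the chromosome (x axis). Sprr2f is at 5.16 at 7 days and -0.21 at 1 month, while Sprr1a and Sprr2b are above 0.5 at both ages.

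At 1 month Sprr2f was low in both genotypes. Its signals were 10.5, 94.1 and 50.4 on the 1-month Aprt KO arrays and 51.4, 100 and 28.8 on the 1-month control arrays. These ranges overlapped, and all 6 values lay within or below the 7-day control range. The log2 fold change was -0.21 (SE 0.37; 95% interval -0.99 to 0.57), and the limma adjusted p was 1. Leaving out single arrays moved it between -0.66 and 0.19, and it was 0.19 without the 4 arrays. As a description, the 1-month effect minus the 7-day effect was -5.37 (SE 0.45), and the contrasts at the 2 ages share no mouse.

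For Sprr2i, Sprr2g, Sprr2e and Sprr2c-ps, which were apart at 7 days, the genotypes overlapped at 1 month. Sprr2i read 1054, 1024 and 1007 on the 1-month Aprt KO arrays, against 962, 1227 and 777 on the 1-month control arrays. Its log2 fold change was 0.08, with a 95% interval of -0.32 to 0.48. Sprr2g read 679, 1100 and 948 against 940, 923 and 713, a log2 fold change of 0.06 (-0.31 to 0.44), and 0.32 without the 4 arrays whose Aprt signal went against the label, when its groups did not overlap. The 7-day estimates of these probe sets come from the contrast that chose the family, so the ages were not compared by a test. Sprr2e read 2462, 2369 and 2229 against 2370, 2240 and 1622, a log2 fold change of 0.19 (-0.12 to 0.51). Sprr2c-ps averaged 40.6 ± 2.70 on the 1-month Aprt KO arrays and 34.0 ± 8.40 on the 1-month control arrays (SD, n = 3 each), and its log2 fold change was 0.15 (-0.59 to 0.89).

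The members that overlapped at 7 days overlapped at 1 month too. Sprr2h, the largest 1-month difference among them, read 82.2, 63.6 and 67.5 on the 1-month Aprt KO arrays and 23.1, 84.2 and 17.9 on the 1-month control arrays. Its log2 fold change was 0.61 (SE 0.36; 95% interval -0.15 to 1.38; limma adjusted p = 1). Sprr3 had -0.28 (-1.22 to 0.65) and was lower in the Aprt KO mouse in 3 of 3 litter pairs. Sprr2k, Sprr2d, Sprr2j-ps and both Sprr1b probe sets had log2 fold changes between -0.11 and 0.25, each with a limma adjusted p of 1. The median over the 14 members was 0.09, against -0.01 over all probe sets.

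Sprr1a and Sprr2b were higher on all 3 Aprt KO arrays than on all 3 control arrays at 1 month, in contrast to the other 12 members, whose groups overlapped. Over all probe sets, 3.75% were placed that way. Sprr2g joined them without the 4 arrays, against 7.48% of all probe sets. Sprr1a read 1149, 1088 and 2171 on the 1-month Aprt KO arrays and 809, 513 and 527 on the 1-month control arrays. Its log2 fold change was 1.17 (SE 0.27; 95% interval 0.61 to 1.74), with an unadjusted p of 0.000404 and an adjusted p of 0.157 in limma. Sprr2b read 779, 896 and 1617 against 625.1, 489.7 and 624.9 on the control arrays, a log2 fold change of 0.82 (SE 0.23; 0.33 to 1.31) with an unadjusted p of 0.00251 and an adjusted p of 0.348. Neither passed the threshold, and 0 of the 14 members did. By the same limma test 8 of 12422 probe sets were called at 1 month, or 0.0644%, all higher. That count was 0 without 1-month Aprt KO 2 or without Aprt KO 3, and 1 without 1-month control 2. At an unadjusted p under 0.05 there were 2 of 14 members, Sprr1a and Sprr2b, against 3.9% of all probe sets.

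Both results depended on how littermates were treated and on 1 mouse. With the litter pair as a random replicate block the adjusted p was 0.0294 for Sprr1a and 0.047 for Sprr2b, under the threshold, and with the pair as a fixed replicate block 0.09 and 0.0839. Each of the 3 litter pairs had the higher value in the Aprt KO mouse, with pair differences between 0.49 and 1.98 for Sprr1a and between 0.30 and 1.33 for Sprr2b. Aprt KO 3 had the highest signal for both genes. Without it the log2 fold changes were 0.80 for Sprr1a and 0.51 for Sprr2b. Without the 4 arrays whose Aprt signal went against the label they were 1.51 (adjusted p = 0.112) and 1.08 (adjusted p = 0.299).

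Urothelial markers had a higher summed signal on the Aprt KO arrays at 1 month, although not every gene did. The summed signal of the 6 measured genes of 10 listed was 1940 to 2695 on the 1-month Aprt KO arrays and 1226 to 1604 on the 1-month control arrays, without overlap. At 7 days the sums overlapped, at 1439 to 1810 on the Aprt KO arrays and 1348 to 1632 on the control arrays. Psca, a surface antigen of urothelium, averaged 1205 on the Aprt KO arrays against 568.1 on the control arrays at 1 month, and Upk2, a uroplakin, 353 against 165. Trp63, a transcription factor of basal epithelial cells, lay the other way at 104 against 152 (log2 fold change -0.49), and Krt20 at 156 against 165 (-0.05). The log2 fold changes of Psca and Upk2 were 1.04 (limma adjusted p = 0.183) and 0.97 (adjusted p = 0.547), and 0 of the 6 genes passed the test at either age. The list median was 0.09 at 7 days and 0.38 at 1 month. Psca was called at 1 month under either replicate block, and Krt20 at 7 days. None of the 6 had a group mean below 29, and Upk1a, Upk1b, Upk3a and Snx31 were not measured here by a probe set of their own. The part of urothelial RNA in the Sprr1a and Sprr2b values was not tested.

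**Figure D4:**
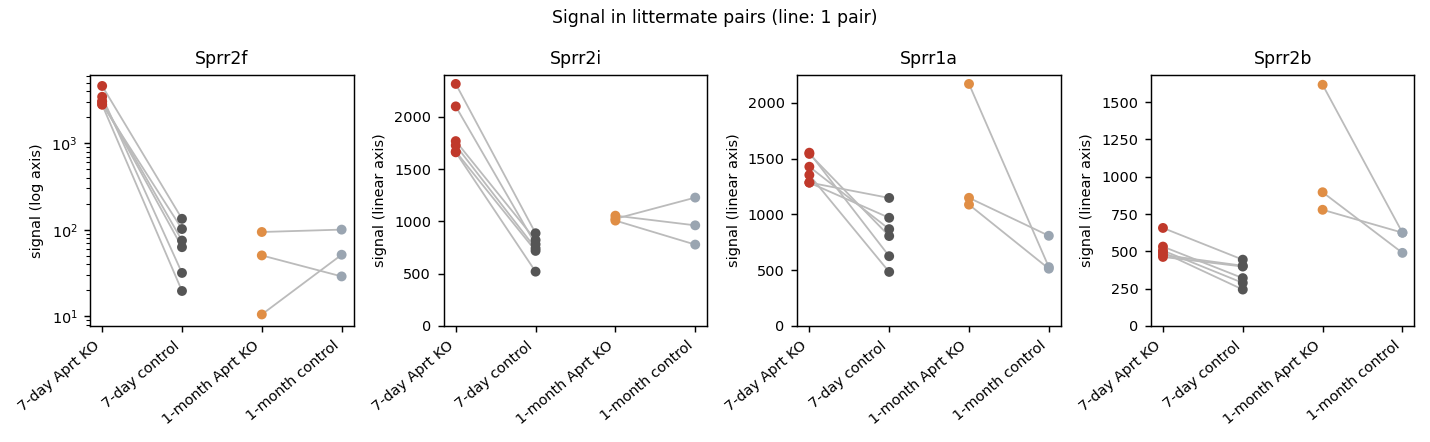
Signal in littermate pairs for Sprr2f (log axis), Sprr2i, Sprr1a and Sprr2b (linear axes), with 1 line per pair and the 7-day pairs left of the 1-month pairs. All lines fall toward the control at 7 days, while at 1 month this holds in 3 of 3 pairs for Sprr1a and Sprr2b and in 1 of 3 for Sprr2f.

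The order of the groups differed between members. For Sprr2f the 7-day Aprt KO group stood alone, and the other 3 group means, 70.8 for 7-day controls, 51.7 for 1-month Aprt KO and 60.2 for 1-month controls, lay within their SDs of 36.5 to 42.9. Sprr2i, Sprr2g and Sprr2c-ps also had their highest mean in the 7-day Aprt KO group. Sprr2b instead was highest in 1-month Aprt KO (1097 ± 454), then 1-month controls (580 ± 78.1), 7-day Aprt KO (521 ± 70.8) and 7-day controls (350 ± 77.4), and the middle groups overlapped. Sprr1a had like means in both Aprt KO groups (1408 ± 121 at 7 days and 1470 ± 609 at 1 month) and lower means in both control groups (817 ± 238 at 7 days and 616 ± 167 at 1 month).

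Between the ages, 0 of 14 members differed by over 2-fold in controls, against 8.52% of all probe sets. On the log2 scale, 1-month minus 7-day controls was 0.67 for Sprr2b, 0.39 for Sprr2i, 0.39 for Sprr2e, -0.24 for Sprr2f and -0.35 for Sprr1a. In Aprt KO mice the same difference was -5.61 for Sprr2f, -1.25 for Sprr2c-ps, -1.04 for Sprr2g, -0.83 for Sprr2i, 0.01 for Sprr1a and 0.93 for Sprr2b. The median over the members in controls was 0.13, against -0.08 over all probe sets. That member median was -0.02 without 1-month control 2.

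Sex was balanced over genotype at 7 days, and this contrast is separate from the difference that chose the family. By limma, 0 of the 14 members were called between males and females at an adjusted p under 0.05, against 0.0322% of all probe sets, and 1 had an unadjusted p under 0.05, as did 6.17% of all probe sets. The count of members was also 0 without the 4 arrays whose Aprt signal went against the label. That probe set was the brighter one of Sprr1b, with a log2 difference of male minus female of -0.51 by limma (unadjusted p of 0.044 and adjusted p of 0.773, limma fit on all arrays). Sprr2f had -0.52 in the same limma fit (unadjusted p of 0.0655, adjusted p of 0.773).

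Genes of the tissues in which Sprr proteins usually work were followed beside the family, each by its brightest probe set. Of 26 listed cornified envelope genes 11 were measured, and 1 rose at 7 days, Anxa1, an annexin (log2 fold change 0.67, limma adjusted p = 0.0121), while 0 fell. Involucrin (Ivl) had -0.21 and loricrin (Lor) 0.01, neither called. Of 25 genes for keratins and junctions of stratified epithelium 23 were measured and 0 were called, and all 7 measured skin markers (of 9) were uncalled. The list medians were 0.03 for the cornified envelope, 0.08 for stratified keratins and junctions and 0.03 for skin. Under the fixed or random replicate block, Cstb was also called in the first list and Krt20 and Dsg2 in the second. Krt20 is on the urothelial list too, so its call is not one of stratified epithelium alone. Anxa1 was not called without the 4 arrays whose Aprt signal went against the label. At 1 month 0 genes of these 3 lists were called, and Anxa1 was called under the fixed block.

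Keratins of simple epithelium differed from these in their counts. All 4 measured (of 5 listed) rose at 7 days, with a list median of 0.87. Krt19, a keratin of ducts and injured tubules, read 1715 to 2252 on the 7-day Aprt KO arrays and 356 to 598 on the 7-day control arrays, a log2 fold change of 2.06 (limma adjusted p = 9.3e-08). Krt18 had 1.10 (adjusted p = 0.00853), Krt8 0.65 (adjusted p = 0.0194) and Krt7 0.56 (adjusted p = 0.0218). Krt19 was still called without the 4 arrays, and the other 3 were not. At 1 month Krt19 was the only called gene of the 4, at 1.26 (adjusted p = 0.021), with its second probe set at 0.15, and Krt18 joined it under the fixed block. That Krt19 call was lost without 1-month Aprt KO 2, Aprt KO 3, control 2 or control 3, with adjusted p up to 0.169 (lowest 0.0102 over the left-out arrays), and also with quantile normalization, median centring or a pseudocount of 100. At 7 days the Krt7 call was lost without Aprt KO 4 or 5 or control 1, 5 or 6, and the Krt8 call without Aprt KO 5 or control 1, 5 or 6. Lcn2 and Clu, both known as markers of tubular injury, had 7-day log2 fold changes of 3.47 (adjusted p = 1.86e-09) and 1.73 (adjusted p = 7.64e-07), and 1-month values of 1.62 (adjusted p = 0.0152) and 0.37 (adjusted p = 1). A second Lcn2 probe set showed 0.10 at 7 days. The 1-month Lcn2 call was lost without 1-month Aprt KO 2, Aprt KO 3 or control 2 (adjusted p up to 0.0873) and with a pseudocount of 100. Without the 4 arrays, Lcn2 had 3.57 and Clu 1.88 at 7 days, and Lcn2 1.94 at 1 month.

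The neighbours of the Sprr genes in the epidermal differentiation complex were counted beside the 1.51% of all probe sets called higher at 7 days. Of 24 listed 16 were measured and 2 rose at 7 days, S100a6 (1.19, limma adjusted p = 0.000201), a calcium-binding protein of proliferating cells, and S100a8 (1.06, adjusted p = 0.0118), a calcium-binding protein of neutrophils and monocytes. None fell, and the list median was 0.07. The random replicate block called 4 of the 16 and the removal of the 4 arrays left 1, S100a6. At 1 month 0 of 16 were called, and 1 under either block, again S100a6.

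Of 25 genes listed as regulators of Sprr genes, 21 were measured, and 4 rose and 0 fell at 7 days. Fos, a subunit of AP-1, read 350 to 690 on the 7-day Aprt KO arrays and 60.3 to 159 on the 7-day control arrays, a log2 fold change of 1.74 (limma adjusted p = 9.88e-05). Junb, another AP-1 subunit, had 0.99 (adjusted p = 0.0142), Elf3, an epithelial ETS factor, 0.98 (adjusted p = 0.00244), and Stat3, the transcription factor of IL-6 family signalling, 0.58 (adjusted p = 0.0011). Without the 4 arrays, Fos and Elf3 were still called. At 1 month 0 of 21 were called, and Klf4, an epithelial zinc-finger factor, under the random block.

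The IL-6 family list, with cytokines, receptors and their signalling proteins, had 17 of 21 genes measured, of which 6 rose and 0 fell at 7 days, with a median of 0.58. The measured genes include Il13, Il13ra1 and Il4ra, which belong to IL-4 and IL-13 signalling and were not among the 6. Osmr, the oncostatin M receptor, rose by 2.21 (limma adjusted p = 2.28e-06), and Socs3, the feedback inhibitor of this pathway, by 1.78 (adjusted p = 1.86e-06). Cebpd (0.77, adjusted p = 0.0396) and Cebpb (0.74, adjusted p = 0.0499), both transcription factors of the acute phase, and Il6st (0.58, adjusted p = 0.000927), the shared receptor subunit, were the others with Stat3. The replicate blocks raised the count to 11, which includes Il13ra1 and Il4ra. Lifr, the receptor of leukaemia inhibitory factor, was called lower there (log2 fold change -0.26), and without the 4 arrays 3 remained (Il6st, Osmr and Socs3). The calls of Cebpb and Cebpd were lost in 15 of the 30 alternatives each. At 1 month 0 of 17 were called. The lists were chosen with earlier results of these data known, so their counts are a description beside 1.51% called higher over all probe sets. That share belongs to the fit as reported, with 221 probe sets called in either direction. With the fixed and random blocks 522 and 491 were called over all probe sets, and 122 without the 4 arrays.

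**Figure D5:**
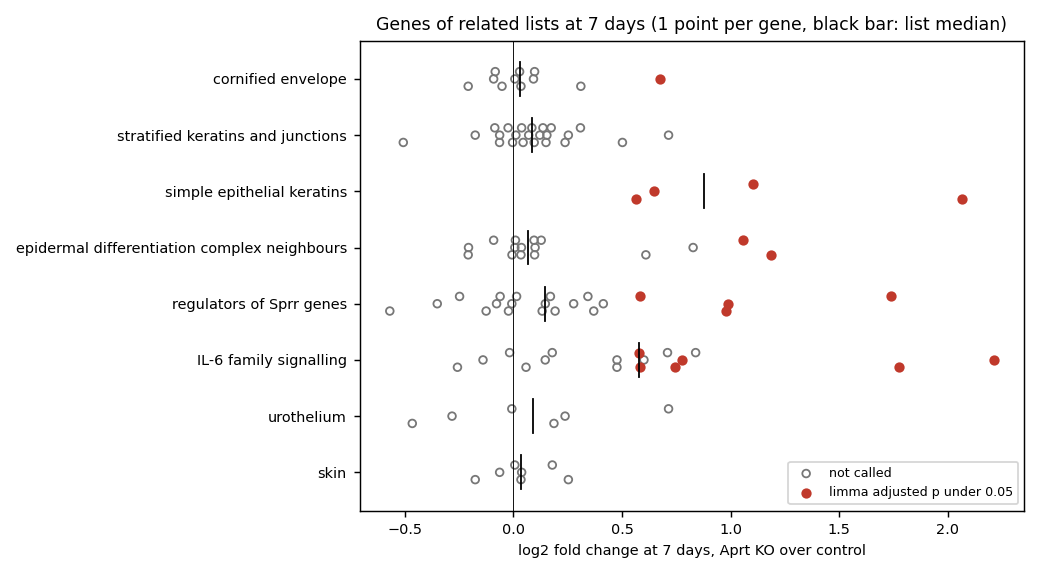
Log2 fold change of Aprt KO over control (x axis) at 7 days for the measured genes of 8 related lists, with filled points for genes called by limma and a bar at each list's median. The called genes lie in the simple keratin, regulator, IL-6 family, complex neighbour and cornified envelope lists, and all are above 0.

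Among the 6 Aprt KO arrays at 7 days, spread of the members was compared without use of the genotype difference. The brightest Sprr probe set, that of Sprr1b, was set against the other 13 members, Lcn2, Clu and Krt19, which gives 16 relations, and 0 passed an exact permutation test after adjustment (smallest adjusted p = 0.451). Its relation to Sprr2f had r = 0.73 (exact permutation p = 0.14, adjusted 0.451) and rho = 0.94 (exact p = 0.0167, adjusted 0.266), and r = 0.46 without the 2 arrays farthest from the median. With Sprr2f as the reference instead, a choice made after seeing the data, 0 of 16 passed. Sprr2b had r = 0.91 (exact permutation p = 0.0389, adjusted 0.297), rho = 0.77 and r = 0.93 without the 2 farthest arrays. Sprr2i had r = 0.92 (exact permutation p = 0.0194, adjusted 0.297) and rho = 0.71, but r = -0.13 without the 2 farthest arrays, so that its high r depended on those. Lcn2 had r = 0.01 with Sprr2f (exact permutation p = 0.976). Each r without the 2 farthest arrays rests on only 4 arrays and is a description. The relations over all 6 arrays include Aprt KO 4, and they were not run with it alone left out. Exact permutation of 6 arrays has only 720 pairings. After adjustment over 16 relations, a relation on its own could pass only if almost no pairing gave as large an r. With either reference, the count of 0 thus cannot show that relations are absent.

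Over all 18 arrays the genes with the pattern most like that of the brightest Sprr1b probe set, by Pearson's r on the log2 scale among 8238 genes, were Itm2b (0.88), Pdzk1ip1 (0.85), Atp5md (0.84), Cd63 (0.83), Vps28 (0.83), Eps15 (0.83), Ndufa8 (0.83), Hba-a1 (0.83), Eif4a2 (0.82) and Cox6a1 (0.82). With the group means removed, r lay between 0.78 (Cox6a1) and 0.86 (Ndufa8) for these, so the likeness is mostly between arrays of the same group. The other Sprr1b probe set stayed below 29 on all 18 arrays, and whether the brighter one reads Sprr1b RNA was not tested. For Sprr2f, again chosen after seeing the data, they were Socs3 (0.96), Egr2 (0.96), Il1b (0.95), Cd14 (0.94), Cxcl5 (0.94), Lcn2 (0.94), Cd68 (0.93), Serpina3n (0.93), Lilr4b (0.93) and Hk2 (0.92). The arrays share their groups, and Sprr2f mainly separates 7-day Aprt KO from the rest. After the group means were removed, r was 0.65 for Socs3, 0.61 for Egr2, 0.52 for Hk2, 0.50 for Cd68 and 0.47 for Lcn2, and between -0.16 and 0.09 for the other 5. Egr2, an immediate early transcription factor, read 363 to 502 on the 7-day Aprt KO arrays, against 34.0 to 124 on the 7-day control arrays, and like Sprr2f its groups overlapped at 1 month (53.4, 135 and 57.0 on the Aprt KO arrays against 100, 127 and 79.8 on the control arrays). Lcn2, in contrast, did not overlap at 1 month (130, 288 and 371 against 51.0, 56.8 and 71.2).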

How the data were processed

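Kidney total RNA of 18 mice, labelled with biotin, was measured on Affymetrix arrays, 1 per mouse. Per the submitters' processing notes the authors used GCOS and MAS5, and what they deposited is 1 linear intensity signal per probe set and array. Software versions and the scaling target: not given in the sources used here. The signals were used as deposited, with no further normalization and no detection calls. Arrays have no read depth, and their number limits the precision.

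Of 12488 probe sets, 66 controls were left out. Of the others, 10833 had 1 gene symbol, 396 several and 1193 none, and only the first kind was used to name genes. No probe set was dropped for low signal, and 9 of the 14 members had a mean signal above 118.6, the 40th percentile. Log2(signal + 29) was modelled in R 4.3.3 by limma 3.58.1 (functions lmFit and eBayes, trend on) on all 18 arrays; 29 is the 20th percentile of the deposited signals after rounding. The model had a term per group and 1 sex term per age. Residual degrees of freedom were 12. Tests were two-sided with Benjamini-Hochberg adjustment over all 12422 probe sets, and calls needed an adjusted p under 0.05. The labels say the replicates are separate mice. They also name the littermates, and the litter pair was tried as a fixed and as a random replicate block (duplicateCorrelation, correlation 0.433). Once group means were taken off, the 9 pairs correlated at 0.158 to 0.552, and 12 of 18 arrays correlated best with their own littermate.

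On simulated data for 12422 probe sets, log2 changes of 1 and 2 were recovered in 79% and 99% of cases at 7 days and in 57% and 91% at 1 month. Each size was planted on 100 probe sets, with noise independent between littermates. Among unchanged probe sets, 12 were called at 7 days and 6 at 1 month. The real 1-month data gave only 8 calls, so these shares can be too high for that contrast. Correlations used exact permutation (scipy 1.17.1), promoter windows were aligned with Biopython 1.88, and figures were drawn with matplotlib 3.10.9. Named genes were all Sprr probe sets, Aprt, Lcn2, Clu, Krt19, up to 5 called members of each list, and the 10 genes most like the brightest Sprr probe set. Ivl, Lor, Psca, Upk2, Trp63, the 4 unmeasured urothelial genes, the genes like Sprr2f, and Cstb, Krt20, Dsg2, Klf4 and Lifr were named after their values were seen. So were Il13, Il13ra1 and Il4ra. The members, lists and tests were chosen with earlier results of these data known.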

Additional observations from a re-analysis of the deposited data

Results flagged for a closer look

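In 28 sets of 6 arrays (14 probe sets in each 7-day group), 2 had an array far from the others for the size of the group. Sprr2c-ps had its lowest 7-day control value, 24.1, on control 2, a gap to the next array of 0.672 of the group's range. Sprr3 had its highest 7-day Aprt KO value, 83.7, on Aprt KO 6, a gap of 0.701 of the range. Both are dim probe sets. Control 2 is also among the 4 arrays whose Aprt signal went against the label. Chance flags about 1 in 20 such groups.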

How the results depend on the processing

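The count of Sprr members called at 1 month was 0 in the fit as reported and in 29 of 30 alternatives; the exception, 2, came with the litter pair as a random replicate block. Leaving out single arrays gave 0. Between the sexes it was 0 in each of the 28 alternatives run for it. The fixed replicate block leaves no age or sex contrast to estimate, so those were not run with it.

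The 1-month count over all probe sets, 8 as reported, was 23 with a pseudocount of 1, 0 with a pseudocount of 100, 15 with the filter on mean signal, 18 with the brightest probe set per gene, 58 and 92 with the fixed and the random replicate block, 17 without the litter pair of 7-day control 4 (chosen after seeing the data), and 0 to 11 when single arrays were left out. The 7-day count, 221, was 522 and 491 with the replicate blocks, which held 220 and all 221 of the same probe sets, 122 without the 4 arrays whose Aprt signal went against the label, and 173 to 258 when single arrays were left out. The median 7-day log2 fold change of the Sprr members, 0.50, was 0.76 with the filter or the brightest probe set per gene, which keep 9 members, 0.29 without the 4 arrays, and 0.41 to 0.58 when single arrays were left out. Sprr2f passes the filter, used in both, only through its 7-day Aprt KO signals, with a group mean of 3297. Its other group means were 70.8 (7-day controls), 51.7 (1-month Aprt KO) and 60.2 (1-month controls). The 0.76 thus depends on values that chose the family. The median age difference of the members in controls, 0.13, was 0.33 with a pseudocount of 1, 0.35 with median centring, 0.29 with the filter or the brightest probe set, and between -0.0156 (the sign turned, without 1-month control 2) and 0.18 when single arrays were left out. For these shifts the cause was not tested. The Sprr2f 7-day log2 fold change was 5.77 with a pseudocount of 1 and 4.33 with a pseudocount of 100. Adjusted p at 1 month over the left-out arrays ran between 0.0881 and 0.786 for Sprr1a and between 0.253 and 1 for Sprr2b. Probe sets below 29 carry little information on fold change, and Sprr2 probe sets that share sequence cannot be assigned to a single gene.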
